A study of Xenopus laevis with 4 samples.

Results

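The regions described here are the ETS2 regions on chromosomes 7L and 7S of the frog Xenopus laevis. They are all common regions, which are regions called as peaks in both ChIP libraries, whose chromosome in the authors' list of common regions is 7L or 7S. There were 4810 of them, 2794 on 7L and 2016 on 7S, which is 7.87% of the 61137 common regions of the genome. In the study, ETS2 with a triple FLAG tag was expressed from 750 pg of injected mRNA, and whole embryos were collected in mid-gastrulation at stage 11.5. DNA bound by the tagged protein was isolated with a FLAG antibody and sequenced (ChIP-seq) in 2 libraries, called library 1 and library 2 here, and 2 inputs were made without antibody. The embryos of all 4 libraries carried the tagged mRNA, so that the binding mapped is that of an injected protein in a mixture of all cells of the embryo, and a ChIP from embryos without the tag was not analysed here. The labels do not tell separate clutches of embryos apart.

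ETS2 belongs to the ETS family of transcription factors, whose members share a DNA-binding domain that recognises a short purine-rich core. Several ETS factors act downstream of FGF signalling through MAP kinase, a pathway at work in the mesoderm of the gastrula. Xenopus laevis is an allotetraploid: its genome joins L and S subgenomes from different ancestral species, and chromosomes 7L and 7S are homeologs, the versions of the same ancestral chromosome in each subgenome. Homeologs are known to carry many of the same genes in largely the same order, so that a place on 7L can be set beside the place at the same relative position on 7S. Coordinates are printed as deposited. The sources used here name no build, so no gene or sequence was assigned to a region.

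Each library came as 1 peak list, with 69083 peaks in library 1 and 157105 in library 2, and read depth is unknown. The deposited value of each peak, which appears to be the −log10 of its p-value or q-value, is the authors' own. For comparisons it was used only as a percentile within its own list, because values of libraries of unknown depth cannot be compared in size. Values printed for single regions are to be read within 1 library. There is 1 list of common regions and 1 chromosome of each kind, so no difference between 7L and 7S was tested, and intervals cover counting error only. Neighbouring regions are not independent, which makes such intervals too narrow.

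Binding was about equally dense on the homeologs, although 7S is much the shorter. Up to the last peak, 7L spanned 126.8 Mb and 7S spanned 89.7 Mb, the shortest of the 18 chromosomes. Lengths, densities and positions are those of the chromosomes as placed in the deposited coordinates. A further 5696 common regions (9.32% of all) lay on unplaced scaffolds, and whether any belong to 7L or 7S is not known. The L to S ratio of these lengths was 1.41, where the other 8 pairs had ratios of 1.13 to 1.22. There were 22.0 common regions per Mb on 7L (exact Poisson 95% interval 21.2 to 22.9) and 22.5 per Mb on 7S (21.5 to 23.5). The intervals overlap widely, and over all 18 chromosomes the density was 22.1 per Mb.

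Library 1 gave 3103 peaks on 7L and 2253 on 7S, or 24.5 and 25.1 per Mb. Library 2 gave 7364 and 5121, or 58.1 and 57.1 per Mb. Of the library 2 peaks, 38.0% on 7L (36.9 to 39.1%) and 39.5% on 7S (38.2 to 40.9%) overlapped a library 1 peak, against a background of 38.8%, and of the library 1 peaks 97.5% and 97.0% overlapped one of library 2. The log2 ratio of L to S was −0.03 for common regions, −0.04 for library 1 and 0.02 for library 2, so the direction differed between the libraries. For common regions it was positive in all of the other 8 pairs, from 0.02 to 0.24, and for library 2 it was positive in 7 of them. Common regions covered 1.15% of 7L and 1.16% of 7S, a ratio of 0.988 against 1.04 to 1.17 in the other pairs.

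**Figure D1:**
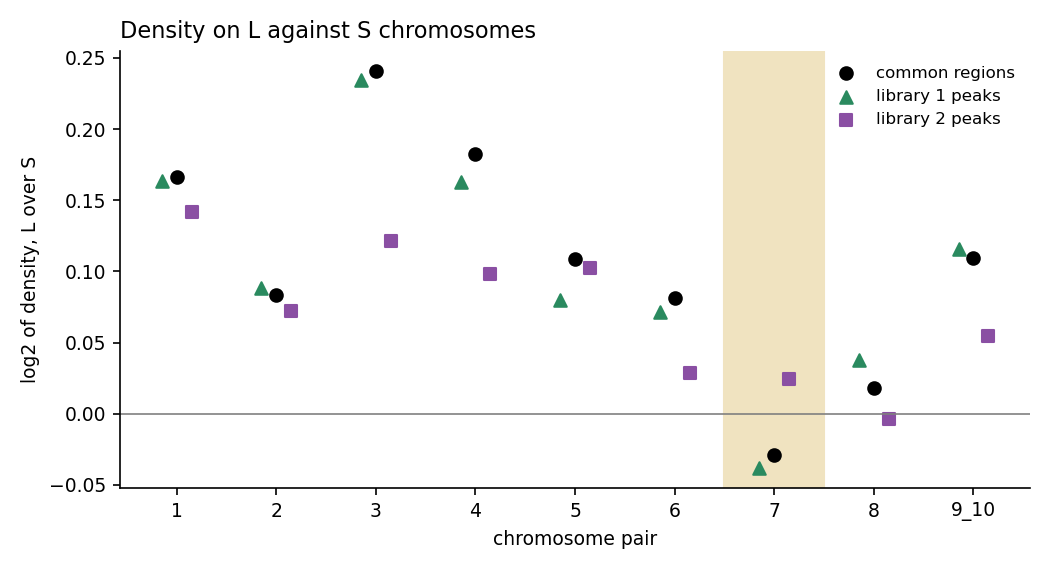
Density on the L against the S chromosome of each of the 9 pairs, as the log2 ratio of regions or peaks per Mb, for common regions (circles), library 1 peaks (triangles) and library 2 peaks (squares). Pair 7 (shaded) lies at −0.03, −0.04 and 0.02, on both sides of 0, and its common regions have the lowest value of the 9 pairs.

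The spacing of regions on 7L and 7S was nearly the same, and like that of the other chromosomes. The median gap between neighbours was 19.1 kb on 7L (interquartile range 4.53 to 54.0 kb) and 19.2 kb on 7S (4.78 to 52.2 kb). Neighbours were less than 5 kb apart in 741 of 2793 gaps on 7L (26.5%, exact binomial 95% interval 24.9 to 28.2%) and in 517 of 2015 on 7S (25.7%, 23.8 to 27.6%), where the background over all 18 chromosomes was 25.6%. In every other pair the median gap was shorter on L than on S, with ratios of 0.807 to 0.936, and in pair 7 the ratio was 0.992. Regions more than 100 kb from any other numbered 82 on 7L (2.93%, 2.34 to 3.63%) and 69 on 7S (3.42%, 2.67 to 4.31%), against a background of 3.28%.

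**Figure D2:**
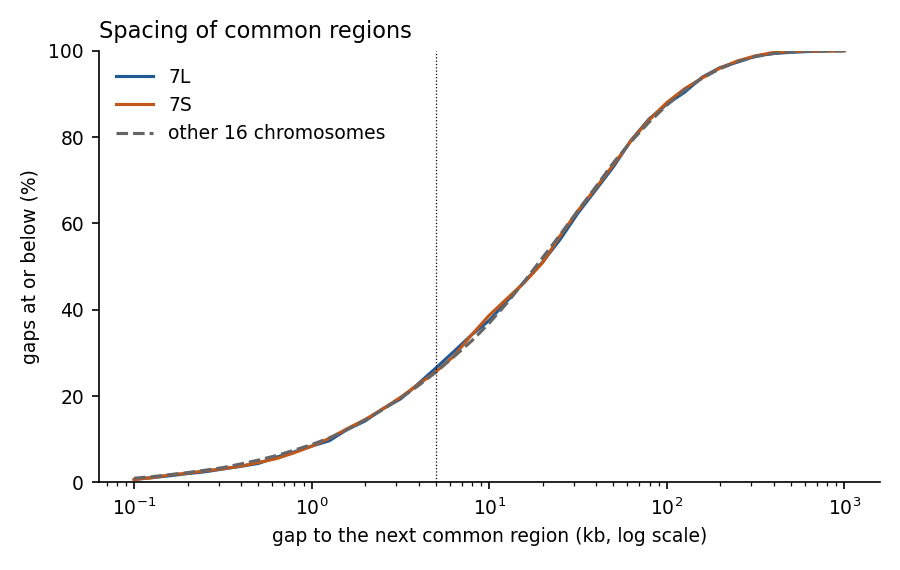
Cumulative share of gaps (vertical axis, %) up to each gap length (horizontal axis, kb, log scale) between neighbouring common regions on 7L, on 7S and on the other 16 chromosomes. The lines nearly coincide, with 26.5% of gaps on 7L and 25.7% on 7S under 5 kb (dotted line).

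Each chromosome also held long stretches with no common region. The longest on 7L was 846 kb, from 79223259 to 80069123, and lay at 62.8% of the length of the chromosome. It held 10 peaks of library 2, none above the 70.9th percentile of its list, and no peak of library 1. The region on its left, at 79222814 to 79223258, had a mean percentile of 78.9, and the region on its right, at 80069124 to 80069456, had one of 52.4. On 7S the longest gap was 815 kb, from 70363517 to 71178993, at 78.9% of the length. It held 16 library 2 peaks and none of library 1, between regions at 70363073 to 70363516 (mean percentile 54.4) and 71178994 to 71179309 (53.0). These longest gaps thus lay at different relative positions on the homeologs. Gaps over 250 kb numbered 73 on 7L and 47 on 7S and made up 20.8% and 18.5% of their lengths, against 20.4% over all 18 chromosomes.

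Regions had nearly the same width on both chromosomes. The median was 450 bp on 7L (interquartile range 353 to 616 bp) and 449.5 bp on 7S (348 to 622.5 bp), where the medians of the other 16 chromosomes ran from 442 to 475 bp. A common region is a merge of overlapping peaks of both lists, and the peaks of each list had lower median widths. Library 1 peaks had median widths of 221 and 223 bp on 7L and 7S, and library 2 peaks 280 and 282 bp. These medians are over all peaks of a list, and peaks inside common regions were not measured apart. Widths over 1000 bp were found for 154 of 2794 regions on 7L and 105 of 2016 on 7S, against 3131 of 55441 over the 18 chromosomes. The widest on 7L, at 112279481 to 112282572, was 3092 bp long and joined 3 library 1 peaks under a single library 2 peak. The widest on 7S, at 63616527 to 63618634, was 2108 bp long and joined 2 library 1 peaks. At least 2 library 1 peaks lay in 206 regions on 7L (7.37%, 6.43 to 8.41%) and 157 on 7S (7.79%, 6.66 to 9.04%), against a background of 7.68%.

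The strength of binding, taken as the percentile of the highest overlapping peak in each list, also differed little. In library 1 the median percentile was 53.9 on 7L and 52.7 on 7S, and in library 2 it was 80.1 and 79.7. The mean over both libraries, called strength below, had a median of 65.9 on 7L (interquartile range 47.8 to 82.9) and 65.3 on 7S (46.8 to 81.8). Medians of the other 16 chromosomes lay between 63.9 and 67.6. The percentile was higher in library 2 than in library 1 for 89.6% of the regions on 7L and 90.2% on 7S, against 91.0% over the 18 chromosomes. The lists differ in length and in the share of their peaks in common regions, so this does not show stronger binding in library 2. Rank correlations between the libraries were 0.78 over the 2794 regions of 7L and 0.76 over the 2016 of 7S, given as a description. Strength also rose with width, and these correlations were not adjusted for width. Median widths rose from 330 bp among regions in the lowest 25% of strength to 630.5 bp in the highest 25% on 7L, and from 331.5 to 648 bp on 7S.

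Among the strongest 10% of all common regions, 290 lay on 7L (10.4% of its regions, 9.27 to 11.6%) and 192 on 7S (9.52%, 8.28 to 10.9%), where the share over the 18 chromosomes was 10%. The strongest region of 7L, at 90693002 to 90693682, is 681 bp wide, had peak values of 114 in library 1 and 241 in library 2, and ranked 11th of all 61137 regions. The next on 7L was at 118788610 to 118790393, with values of 112 and 235, and ranked 16th. It was followed by regions at 73746024 to 73746706 (values 110 and 211), at 119528122 to 119529287 (101 and 209) and at 1623974 to 1624970 (99.8 and 204). These 5 all lay above the 99.8th percentile of both lists. None lay in a window of 100 kb with 10 or more regions, where such windows held 10.2% of the regions of 7L. This depended on the window borders. With windows shifted by 50 kb, the region at 118788610 lay in a window of 10 regions, from 118750001 to 118850000.

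On 7S the strongest region, at 4633912 to 4634833, had values of 84.0 in library 1 and 230 in library 2 and ranked 127th in the genome. After it came regions at 85822574 to 85823917 (90.3 and 188), at 78159968 to 78160397 (88.6 and 191), at 25214487 to 25215570 (79.7 and 217) and at 79122241 to 79123117 (72.8 and 239). Of these 5 regions of 7S, the one at 85822574 lay in a dense window, with 16 regions, where dense windows held 11.9% of the regions of 7S. The strongest regions of 7L therefore ranked above those of 7S, while the shares of regions in the top 1% were close, at 0.931% (0.609 to 1.36%) and 0.942% (0.568 to 1.47%).

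**Figure D3:**
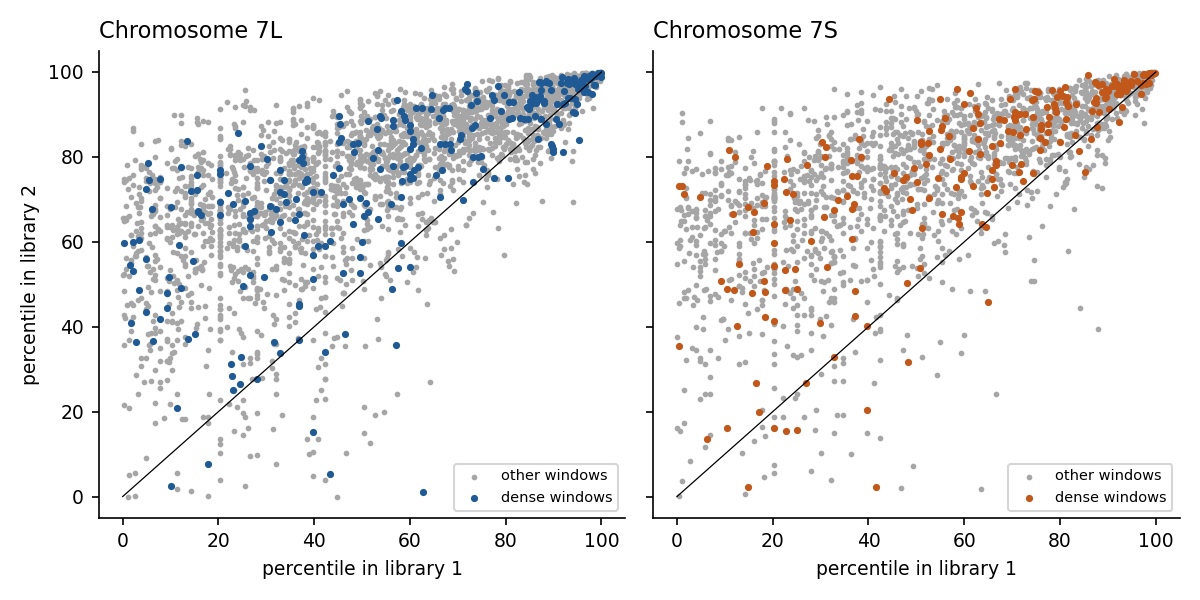
Percentile of each common region in the list of library 1 (horizontal axis) and library 2 (vertical axis), for 7L and 7S, with regions in dense windows in colour and the line of equal percentiles. Most points lie above the line, 89.6% on 7L and 90.2% on 7S, against 91.0% over the 18 chromosomes. Vertical rows of points are library 1 peaks that share the same deposited value.

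Along the chromosomes, binding was uneven in a way the homeologs partly shared. Positions below are given in % of the length of each chromosome. The first 5% of 7L was the densest of its bins of 5%, with 33.4 regions per Mb, against 25.9 per Mb in the first 5% of 7S. On 7S the densest bins were the last, from 90 to 100%, with 31.9 regions per Mb against 24.8 per Mb on 7L. Both were sparse from 45 to 50%, with 13.3 regions per Mb on 7L and 13.8 on 7S, below the mean of each. The bin before it, from 40 to 45%, had 25.2 per Mb on 7L and 19.6 on 7S. The sparsest bins differed. On 7L the lowest bin, from 35 to 40%, had 11.04 regions per Mb, where 7S had 18.1. On 7S the lowest bin, from 50 to 55%, had 11.2 per Mb, where 7L had 20.03, and from 50 to 60% the densities were 20.6 per Mb on 7L and 11.6 on 7S.

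In bins of 1% of the length, 7L had 2 bins with at least 2 times its mean density, and both were among the 6 such bins of 7S. They were singled out after their values were seen. From 65 to 66% there were 62 regions on 7L (48.9 per Mb) and 46 on 7S (51.3 per Mb). From 94 to 95% there were 83 regions on 7L (65.5 per Mb) and 45 on 7S (50.2 per Mb). The rank correlation of the counts in 100 bins was 0.35, given as a description, since the bins share their libraries and neighbouring bins are not independent. The other 8 pairs ran from −0.01 to 0.44, and 1 of them was higher. Over the first 60 bins the correlation was 0.25, and over the last 40 it was 0.47. The border at 60% lies in a part of both chromosomes without windows of 10 or more regions, and the contrast was not tested. Library 2 peaks that overlapped no library 1 peak, which are no part of the common regions, gave 0.41.

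**Figure D4:**
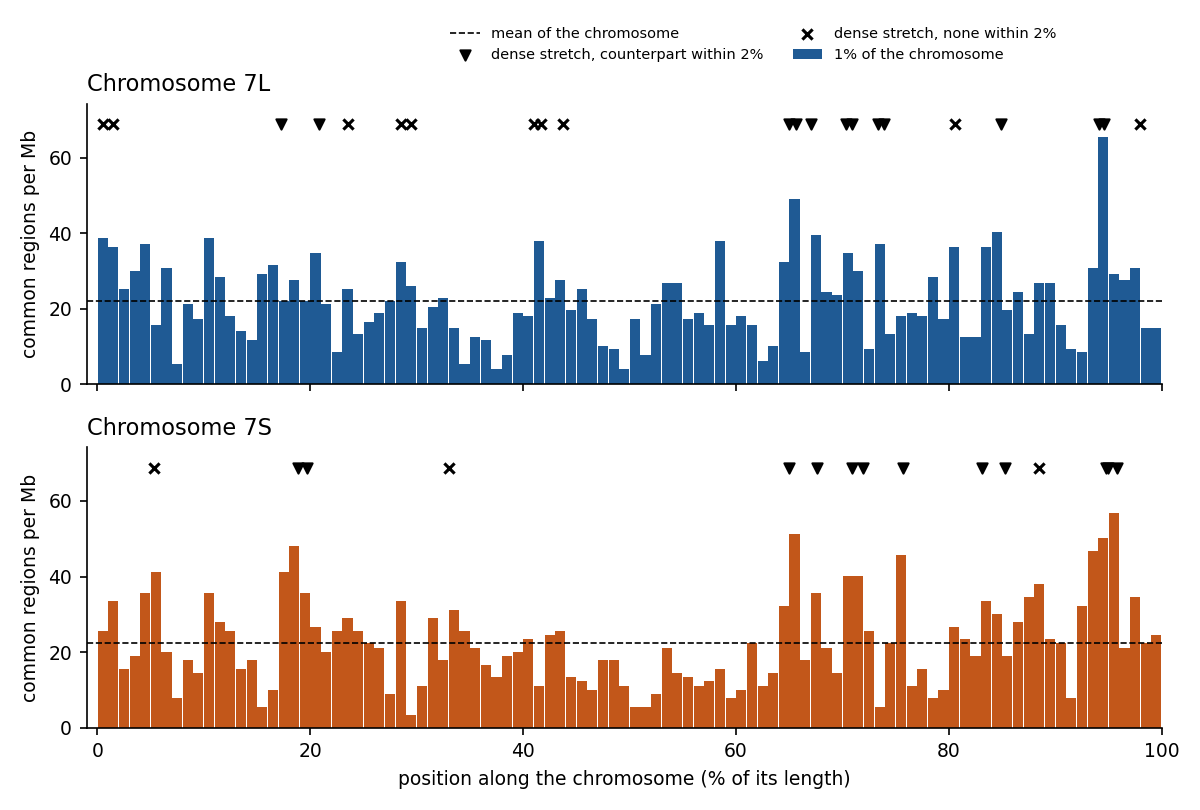
Common regions per Mb (vertical axis) in 100 bins of equal length along 7L (top) and 7S (bottom), with the mean of each chromosome as a dashed line. Triangles mark dense stretches with a dense stretch of the other chromosome within 2% of the same relative position and crosses mark those without; both chromosomes are high at 65 to 66% and at 94 to 95%.

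Most windows of 100 kb held few regions. There were 338 of 1268 windows without a common region on 7L (26.7%, 24.2 to 29.2%) and 216 of 897 on 7S (24.1%, 21.3 to 27.0%), where the background over the 18 chromosomes was 26.4%. Of these empty windows, 268 on 7L (79.3%) and 180 on 7S (83.3%) held at least 1 peak found in library 2 alone. Dense windows, with 10 or more regions, numbered 23 on 7L (1.81%, 1.15 to 2.71%) and 19 on 7S (2.12%, 1.28 to 3.29%), against a background of 1.83%. The S chromosome thus had the larger share of dense windows, at an L to S ratio of 0.856 against 0.948 to 2.10 in the other pairs, although the intervals overlap. Just below the minimum, 9 windows of 7L and 10 of 7S held 9 regions, and just at it, 8 of 7L and 5 of 7S held 10.

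Adjacent dense windows were joined into dense stretches, 22 on 7L and 15 on 7S. They held 284 regions of 7L (10.2%) and 240 of 7S (11.9%). On 7L the fullest, at 600001 to 800000, held 24 regions, and it was the only stretch there of more than 1 window. On 7S there were 4 stretches of 2 windows, the fullest of which, at 67800001 to 68000000, held 29 regions. No dense stretch lay between 43.7 and 65.0% of 7L or between 33.1 and 65.0% of 7S. This depended on the minimum and the list. With a minimum of 8 regions, windows at 67700001 on 7L (53.4%) and 48200001 on 7S (53.8%) were dense. In the list of library 2 alone, with a minimum of 20 peaks, windows at 73700001 on 7L (58.2%) and 52500001 on 7S (58.6%) were dense.

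A larger share of the regions in dense windows was strong, a difference that was not tested. Their median strength was 69.8 on 7L, against 65.2 elsewhere on the chromosome, and 72.7 against 64.4 on 7S. Over the 18 chromosomes it was 69.9 against 65.7. Regions in dense windows were also wider, with medians of 502 against 445 bp on 7L and 498.5 against 446 bp on 7S. Strength was not adjusted for width. Of the 284 on 7L, 46 (16.2%, 12.1 to 21.0%) were in the strongest 10%, against 244 of 2510 (9.72%, 8.59 to 10.9%) elsewhere on 7L. On 7S there were 38 of 240 (15.8%, 11.5 to 21.1%) against 154 of 1776 (8.67%, 7.40 to 10.1%). The same shares over the 18 chromosomes were 17.0% and 9.25%. Of the regions with their nearest neighbour more than 100 kb away, 4 of 82 on 7L (4.88%, 1.34 to 12.02%) and 1 of 69 on 7S (1.45%, 0.0367 to 7.81%) were in the strongest 10%, where the share over the 18 chromosomes was 3.85%. The interval on 7L includes the share of its regions outside dense windows. Peaks found in library 2 alone were also more numerous in dense windows. They numbered 8.83 per dense window on 7L against 3.50 in other windows, and 10.4 against 3.30 on 7S. These peaks were not counted in the choice of dense windows. Each common region does hold a peak of the same library 2, so the counts are not independent of that choice. The same counts over the 18 chromosomes are not given here.

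Of the 15 dense stretches of 7S, 12 had a dense stretch of 7L within 2% of the same relative position, and of the 22 of 7L, 12 had one on 7S. A distance of 2% is many times the 100 kb of a window on either chromosome. No sequence was aligned, so a stretch matched by position need not be the homeologous sequence. The zones within 2% of a 7L stretch made up 54.2% of 7S, and those within 2% of a 7S stretch made up 42.0% of 7L, and the counts are to be read against these shares. The stretches matched were 80% of those on 7S and 54.5% of those on 7L. In the other 8 pairs, 54.5 to 81.5% of S stretches and 44.1 to 77.4% of L stretches were matched, with zones on S of 43.2 to 74.9%. Beyond 60% of the length, 10 of 12 stretches on 7L and 10 of 11 on 7S were matched, where the match zones covered 72.9% of that part of 7L and 71.9% of that of 7S. Before it, 2 of 10 on 7L and 2 of 4 on 7S were matched, where the zones covered 21.5% and 42.4%. Dense stretches were themselves crowded beyond 60%, with 12 of 22 on 7L and 11 of 15 on 7S. The border at 60% lies in a part of both chromosomes that held no dense stretch.

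There were 8 pairs of stretches that were each nearest to the other. They held 116 regions in 0.8 Mb of 7L and 154 in 1.2 Mb of 7S, since 4 of the stretches on 7S and none on 7L were 2 windows long. Per 100 kb that is 14.5 regions on 7L and 12.8 on 7S, and 7S was the denser in 3 of the 8. Toward the start of the chromosomes, the stretch of 7L at 21800001 to 21900000 (17.2%) held 15 regions and that of 7S at 16800001 to 17000000 (18.9%) held 27. This pair was strong on both sides, with a median strength of 91.6 on 7L and 80.9 on 7S, and 6 and 9 of its regions were in the strongest 10%. The stretch at 26300001 to 26400000 on 7L (20.8%, 10 regions, median strength 87.4) was nearest to that at 17600001 to 17800000 on 7S (19.7%, 21 regions, 80.7). The stretches of these neighbouring pairs lay 3.55 percentage points apart on 7L and 0.892 on 7S.

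From 65 to 76% of the length there were 4 pairs. Their shared order on 7L and 7S is fixed by the pairing of nearest positions and is not a result. The first pair was 82300001 to 82400000 on 7L (10 regions) with 58200001 to 58300000 on 7S (11 regions), both at 65.0%. Next came 85000001 to 85100000 on 7L (67.1%, 15 regions) with 60600001 to 60700000 on 7S (67.6%, 19 regions), whose 19 regions lay within 53.0 kb. In this pair, library 1 had 17 peaks on 7L and 21 on 7S, and library 2 had 29 and 30. Then 89800001 to 89900000 on 7L (15 regions) paired with 63500001 to 63700000 on 7S (22 regions), both at 70.9%, with median strengths of 52.3 and 73.8. The last of the 4 was 93700001 to 93800000 on 7L (73.9%, 18 regions) with 67800001 to 68000000 on 7S (75.7%, 29 regions), and 6 and 5 of these regions were in the strongest 10%.

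Toward the end, 107600001 to 107700000 on 7L (84.9%, 14 regions) paired with 76400001 to 76500000 on 7S (85.3%, 11 regions). The final pair was 119900001 to 120000000 on 7L (94.6%, 19 regions) with 84900001 to 85000000 on 7S (94.8%, 14 regions), with median strengths of 64.4 and 79.9. The 8 pairs, which by rule lie within 2%, differed by −1.04 to 1.79 percentage points in position, with a median of 0.253. A further 4 stretches on each chromosome lay within 2% of a dense stretch that was nearer to another. On 7L these were at 83200001 to 83300000, 89100001 to 89200000, 92900001 to 93000000 and 119300001 to 119400000, with 10 or 11 regions each. On 7S they were at 64400001 to 64500000 (12 regions), 74500001 to 74600000 (10), 85100001 to 85200000 (10) and 85800001 to 85900000 (16).

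**Figure D5:**
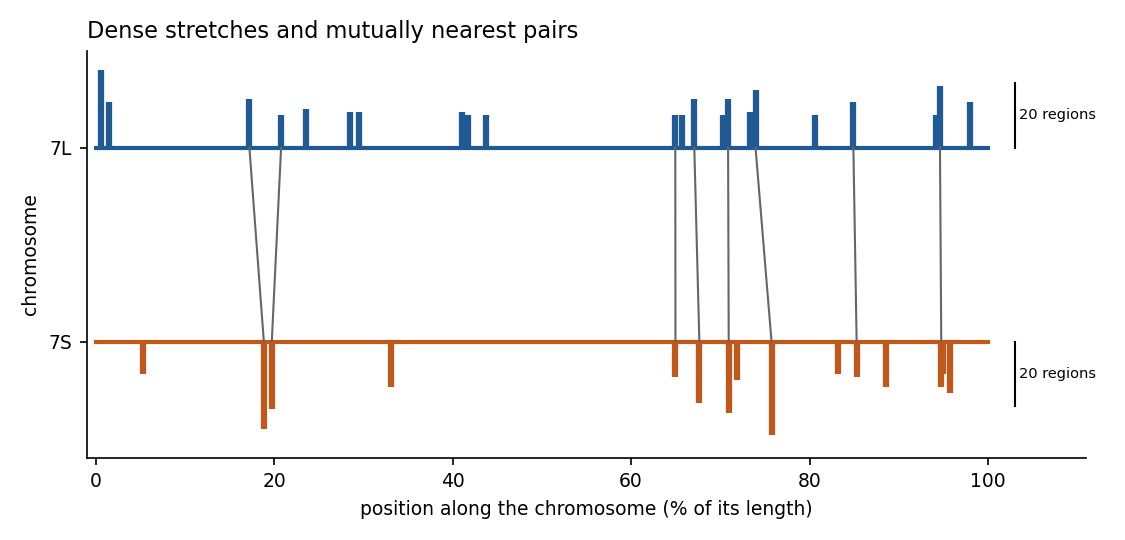
Dense stretches of 7L (bars up) and 7S (bars down) along the length of each chromosome in %, with bar height for the number of regions (scale bars of 20 regions). Grey lines join the 8 pairs that are each nearest to the other within 2%; 6 of them lie beyond 60% of the length.

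How many pairs were found depended on the list used. In the list of library 1 alone, with a minimum of 11 peaks per window that marks a like share of windows as dense, 10 pairs were found, and 7 of the 8 pairs above were among them. In that of library 2 alone, with a minimum of 20, there were 13 pairs, and 5 of the 8 were among them. The pairs at 17.2, 67.1, 70.9 and 73.9% of 7L were found in both lists. With a distance of 1% in place of 2%, 5 pairs were left, and with a minimum of 8 regions there were 24, but the match zones then covered 84.5% of 7S. The pair at 67.1% of 7L was the only 1 of the 8 found under all 8 alternatives tried. Conversely, a dense stretch of 7S at 79300001 to 79400000 (88.5%, 14 regions) had no counterpart by the windows, but a chain of 12 regions with gaps under 10 kb lay on 7L at 112274903 to 112334555 (88.6%) across a window border. The 7S chain there, at 79323488 to 79352355, held 10 regions.

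The 7L stretches without a counterpart within 2% numbered 10, and 6 of them lay from 23 to 44% of its length. The fullest of the 10 were at 600001 to 800000 (24 regions, 0.552% of the length), at 1800001 to 1900000 (14 regions), at 124100001 to 124200000 (14 regions) and at 29800001 to 29900000 (12 regions). Next were those at 36100001, 37300001 and 52000001, each the start of 1 window with 11 regions. On 7S the 3 without a counterpart were at 4700001 to 4800000 (5.30%, 10 regions), at 29600001 to 29700000 (33.1%, 14 regions) and at 79300001 to 79400000, given above. The stretch at 600001 on 7L was not strong, with a median strength of 59.9 and 2 of its 24 regions in the strongest 10%. Some of the 10 stretches of 7L had a counterpart under other settings. With windows shifted by 50 kb, 650001 to 750000 on 7L (19 regions) paired with 150001 to 250000 on 7S (12 regions). In the list of each library alone, 1800001 to 1900000 on 7L paired with 1300001 to 1400000 on 7S. In that of library 2 alone, 124000001 to 124200000 on 7L paired with 87800001 to 87900000 on 7S. With a minimum of 8 regions, stretches at 29800001, 36100001 and 55400001 on 7L, all within 23 to 44%, also had counterparts. These were 7S windows at 21200001 (23.7%, 8 regions), 25400001 (28.4%, 9 regions) and 39000001 (43.6%, 8 regions). The match zones then covered 84.5% of 7S.

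Tight chains of regions, joined by gaps under 10 kb, were also compared. Chains of 10 or more regions numbered 10 on 7L and 6 on 7S, and the longest held 16 regions on 7L and 19 on 7S, where the longest on any chromosome held 35. Such chains took in 4.33% of the regions on 7L and 4.22% on 7S, against 3.08% over all 18 chromosomes. A chain of 19 regions on 7S spanned 53.0 kb, from 60620754 to 60673757, and another spanned 52.4 kb, from 67855708 to 67908081. The tightest on 7L held 11 regions in 21.6 kb, from 119952977 to 119974585, and 5 of them were in the strongest 10%. Chains of 5 or more took in 14.1% of the regions on 7L and 17.3% on 7S, against 14.2% over all 18 chromosomes. Regions alone, with no other within 10 kb, made up 43.2% on 7L and 42.3% on 7S, against 43.6% over all 18 chromosomes.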

How the data were processed

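ETS2 binding was measured by ChIP-seq in 2 ChIP libraries, with 2 inputs. The submitters' processing notes list Bowtie2 2.2.3 and MACS2, with neither role nor settings. The authors deposited 2 peak lists with a value per peak, each named for a ChIP and an input library. Each list was assigned to its ChIP library by the letter in the sample title. The deposited values were taken for −log10 p-values or q-values because the lowest values, 1.33 and 1.31, lie just above −log10 of 0.05 (1.30); the files do not name them. The list of common regions holds coordinates only. Depth is unknown, and no input file was used.

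Peaks and regions were joined by an overlap of at least 1 bp. Percentiles are mid-ranks within each list. Chromosome lengths run to the last peak in any list. Windows of 100 kb start at position 1 and count region midpoints. Start positions count from 1. Intervals are exact (Clopper-Pearson or Poisson) at 95%. No test was made. Alternatives were each library alone, other minimum counts, windows, gaps, distances and bins, and regions above the median strength. Regions named are the 5 with the highest mean percentile on each chromosome, the widest, and those beside the longest gap; stretches named are those that matched and the fullest others. The members, lists and measures were chosen with earlier results of these data known. Genes, motifs and sequences were not analysed here, since no genome of the files' build was used. The code was checked on simulated data with planted stretches, some at the same relative positions on both chromosomes. Such a check does not show how often stretches match by chance. Python 3.11.15, numpy 2.4.6, pandas 2.3.3, scipy 1.17.1 and matplotlib 3.10.9 were used.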

Additional observations from a re-analysis of the deposited data

How the results depend on the processing

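The log2 L to S ratio of density, −0.03, ran from −0.038 to 0.024 with 1 library left out and was 0.00043 among regions above the median strength, so its direction is not settled. The share of close gaps was 14.2% on 7L and 14.5% on 7S under 2 kb, 51.1% and 50.9% under 20 kb, and 16.7% and 16.4% among regions above the median strength. It was 31.9 to 41.5% on 7L and 31.3 to 41.7% on 7S in the lists of single libraries. Median widths there were 221 to 280 bp on 7L and 223 to 282 bp on 7S, over all peaks of each list, in a common region or not. Dense stretches on 7L and 7S numbered 46 and 33 with a minimum of 8 regions, 10 and 9 with 12, and 10 and 6 as chains. Pairs of stretches numbered 5 within 1%, 24 with a minimum of 8, 5 with 12, 4 as chains, and 10 to 13 in the lists of single libraries. The rank correlation of the profiles was 0.48 with 50 bins, 0.23 with 200, 0.41 for peaks found in library 2 alone and 0.34 to 0.42 in the lists of single libraries. The causes of these shifts were not tested beyond what the settings themselves change. The difference in median strength, 0.678 percentile points higher on 7L, was 0.443 in library 2 and 1.18 in library 1. No paired analysis was possible because each deposited list belongs to a ChIP library together with its input, and no file of an input alone was used. As depth is unknown, whether peaks missing from library 1 were too weak to be called there cannot be judged.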

Other observations

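A few regions ranked much higher in library 1 than in library 2. The percentile in library 1 exceeded that in library 2 by more than 20 points in 24 regions of 7L (0.859%) and 18 of 7S (0.893%), against 0.850% over the 18 chromosomes. Regions that ranked more than 50 points higher in library 2 numbered 323 on 7L (11.6%) and 256 on 7S (12.7%), against 12.5%.

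Some bins of 1% differed sharply between the homeologs, and those given here were singled out after their values were seen. From 29 to 30% of the length there were 33 regions on 7L (26.0 per Mb) and 3 on 7S (3.35 per Mb), and from 73 to 74% there were 47 on 7L (37.1 per Mb) and 5 on 7S (5.58 per Mb). From 75 to 76% the order was turned, with 23 regions on 7L (18.1 per Mb) and 41 on 7S (45.7 per Mb). The last of these bins and the one at 73 to 74% hold the dense stretches at 73.9% of 7L and 75.7% of 7S that are counted as a pair in the results, 1.79 percentage points apart, so that fixed bins separate what the match within 2% joins. Other bins differed to a like extent. From 41 to 42% there were 37.9 regions per Mb on 7L and 11.2 on 7S, and from 95 to 96% there were 29.2 and 56.9. None of these differences was tested.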
